A study of Mus musculus with 4 samples.

Results

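The epidermal growth factor (EGF) receptor family and its ligands were followed in cells sorted from mouse gastric tumours. The 10 genes were chosen by name: the receptors Egfr, Erbb2 and Erbb3, and the ligands Egf, Tgfa, Areg, Ereg, Hbegf, Btc and Nrg1. Every gene probe whose accession maps to one of these symbols was taken, which gave 21 probes among the 41174 gene probes of the array. All 10 genes had a probe, and 9 could be tested among 21045 genes.

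The series holds 4 one-colour arrays, 2 of lineage-negative CD44+ cells and 2 of lineage-negative CD44- cells. Both groups came from gastric tumours of the glandular stomach of K19-Wnt1/C2mE mice aged 30 weeks. In these mice the keratin 19 promoter, active in gastric epithelium, drives Wnt1 and the prostaglandin E2 enzymes Ptgs2 and Ptges, so both groups carry all these transgenes. The tumours were digested for 3 h with collagenase and hyaluronidase. The labels do not say how many mice or tumours gave each sample, so the p-values speak only of the spread among these 4 samples, part or all of which may be technical.

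EGF-type ligands are made as membrane-bound precursors that proteases cut free. Egf, Tgfa and Areg bind Egfr, while Hbegf, Btc and Ereg bind Egfr and also Erbb4. Nrg1, a neuregulin, binds Erbb3 and Erbb4. Erbb2 has no known ligand and Erbb3 has little kinase activity of its own, so both signal as partners of other receptors. In the stomach the family is known for repair and growth of the epithelium, and excess TGF-alpha is linked to overgrowth of surface mucous cells. Prostaglandin E2 is known to activate Egfr in cultured gastric epithelial and colon cancer cells through ligand release.

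The sequences before the starts of 3 ligand genes are shown because these genes lie in 1 cluster. In the RefSeq annotation the mouse genes Epgn, Ereg, Areg and Btc follow each other on chromosome 5 with 0 protein-coding genes between neighbours. Epgn encodes epigen, a further Egfr ligand outside the 10 genes. The 250 bases before each start, from RefSeq on GRCm38.p6, lie at chr5:91139349-91139598 on the plus strand for Areg, chr5:91402995-91403244 on the minus strand for Btc, and chr5:91027267-91027516 on the plus strand for Epgn. Capitals mark matches to TGACGTCA, the cyclic-AMP response element letters, and to TATAAA, the TATA box letters. TGANTCA, the AP-1 letters, was also searched. All were searched on both strands, and no matches overlapped in these 3 sequences.
Areg: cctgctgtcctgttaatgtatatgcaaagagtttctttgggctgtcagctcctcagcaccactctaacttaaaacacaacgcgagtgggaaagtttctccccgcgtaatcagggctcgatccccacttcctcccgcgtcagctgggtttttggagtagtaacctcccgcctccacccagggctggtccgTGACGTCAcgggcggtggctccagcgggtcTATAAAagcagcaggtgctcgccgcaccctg
Btc: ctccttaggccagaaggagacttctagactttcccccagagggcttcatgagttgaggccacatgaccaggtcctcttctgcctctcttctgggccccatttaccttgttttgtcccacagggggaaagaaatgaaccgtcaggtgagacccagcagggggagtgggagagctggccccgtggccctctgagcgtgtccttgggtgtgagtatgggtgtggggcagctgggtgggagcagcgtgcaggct
Epgn: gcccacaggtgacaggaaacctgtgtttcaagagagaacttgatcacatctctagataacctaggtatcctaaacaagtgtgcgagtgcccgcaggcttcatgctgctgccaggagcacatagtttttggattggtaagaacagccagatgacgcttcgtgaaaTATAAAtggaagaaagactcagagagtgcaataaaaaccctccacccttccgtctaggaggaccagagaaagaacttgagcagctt
Areg holds 1 TGACGTCA that begins 61 bases before the start and 1 TATAAA that begins 31 bases before it. The Epgn window holds 1 TATAAA that begins 86 bases before its start. No match was found in the Btc window, which says only that these letters are not in it. The windows of Egfr, Erbb2, Egf and Tgfa were also searched, are not shown, and held no match. Ereg, the remaining gene of the cluster, had no entry among the promoter sequences used. Among 32851 promoter windows of the same length, TGACGTCA occurred in 1.55%, TGANTCA in 6.75% and TATAAA in 12.4%.

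The readings below are processed signals, background-subtracted spot intensities, and levels, which are log2 of that signal minus the array's 75th percentile over gene probes. A difference is the mean CD44+ level minus the mean CD44- level, with its standard error (SE) from a limma fit over all genes on 2 arrays per group. A gene was called when its Benjamini-Hochberg adjusted p over all 21045 genes was under 0.05. The 75th percentiles were 244 and 493 for the CD44+ arrays and 406 and 527 for the CD44- arrays, so the first CD44+ array was the dimmest. The lowest signal that counted as well above background corresponded to levels of -3.41 and -5.12 for the CD44+ arrays and -4.92 and -5.22 for the CD44- arrays. All 4 arrays shared 1 slide and 1 scan time. Cd44 itself had levels of 6.31 and 6.54 in CD44+ cells and 4.26 and 5.11 in CD44- cells, a difference of 1.74 ± 0.49 (SE) with a limma adjusted p of 0.199. Of 8 epithelial marker genes, 7 were well above background on all 4 arrays, and of 6 leukocyte marker genes 4 were, although the cells were sorted as lineage-negative.

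None of the 9 tested genes was called, against 0.399% of all genes (84 of 21045, of which CD44+ cells were higher in 5 and lower in 79). Scaling the arrays to their median instead gave 748 calls, with CD44+ cells higher in 121 and lower in 627. Without adjustment 1 of the 9 (Nrg1) had a p under 0.05, against 10.8% of all genes. Differences were above 0 for 6 genes (Erbb2 and Hbegf, both near 0, turned below it when the 75th percentile was taken over probes detected on all arrays), against 60.6% of all genes, and below 0 for 3, with a median of 0.061 against 0.16 for all genes. The CD44+ and CD44- arrays did not overlap for 4 of the 9, Egfr and Areg being higher and Erbb3 and Nrg1 lower in CD44+ cells, against 39.6% of all genes (22.4% higher and 17.2% lower). A difference of at least 2-fold was seen for 3 of the 9 (Nrg1, Btc and Tgfa), against 15.9% of all genes. Of 17 tested probes of these genes, 0 were called in a fit over all probes (0.43% of all probes were), 2 had an unadjusted p under 0.05 (10.4%) and 8 had no overlap of the groups (39.5%). On 4 arrays the intervals are wide, so a gene that was not called is not shown to be equal in the 2 groups.

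**Figure D1:**
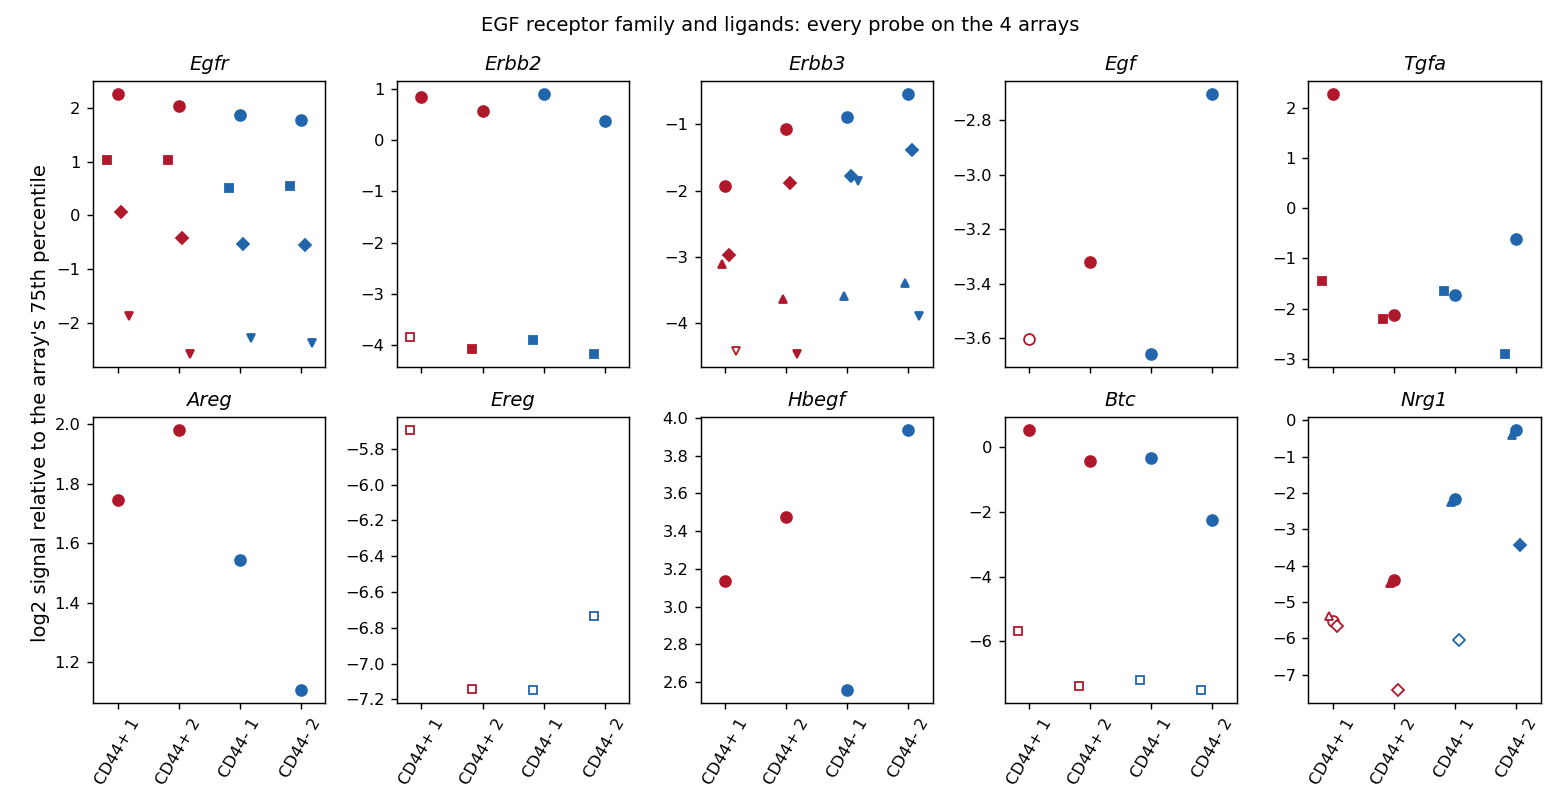
Levels (log2 signal relative to the array's 75th percentile) of every probe of the 10 genes on the 2 CD44+ arrays (red) and the 2 CD44- arrays (blue); circles are the probe that stands for the gene, other shapes its other probes, open symbols are not well above background, and each panel has its own scale. Nrg1 lies lower on both CD44+ arrays, at -5.52 and -4.41, than on the CD44- arrays, at -2.16 and -0.27, while the single-spot Tgfa probe is high on 1 CD44+ array.

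**Figure D2:**
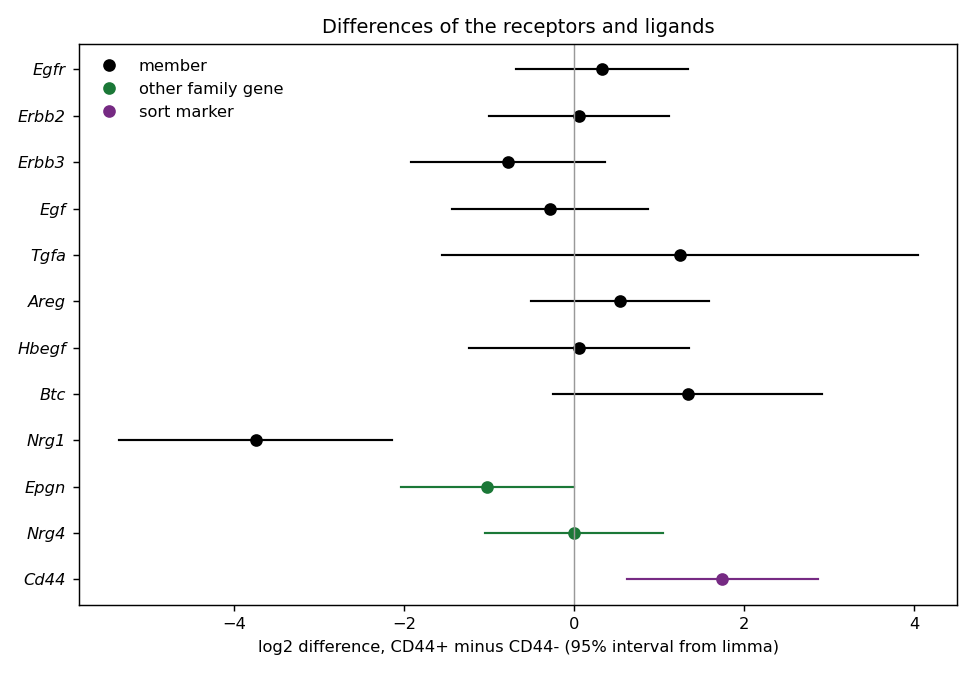
Difference between CD44+ and CD44- cells (log2, CD44+ minus CD44-) with its 95% interval from limma for the 9 tested genes (black), 2 further family genes (green) and the sort marker Cd44 (purple). Among the 9, the interval of Nrg1, from -5.36 to -2.14, is the one that does not reach 0.

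Among the receptors, Egfr, the receptor of most of these ligands, was measured by 4 probes, all well above background on all arrays. Its brightest probe had signals of 1171 and 2017 in CD44+ cells and 1486 and 1807 in CD44- cells. After scaling, these were levels of 2.26 and 2.03 in CD44+ cells and 1.87 and 1.78 in CD44- cells. Both CD44+ arrays were above both CD44- arrays, but the difference was smaller than its error, 0.32 ± 0.44 (SE, 95% interval -0.69 to 1.34, limma adjusted p = 0.843). The differences of the other 3 probes were 0.51, 0.37 and 0.10, and the groups overlapped for the last. Of these probes 2 are spotted 10 times on each array, and their spots varied by 0.861% to 5.07% (coefficient of variation), so spot noise on an array was small beside the SE.

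Erbb2, the receptor without a known ligand, had levels of 0.84 and 0.57 in CD44+ cells and 0.91 and 0.38 in CD44- cells. The groups overlapped, and the difference was 0.061 ± 0.46 (SE, 95% interval -0.998 to 1.12, limma adjusted p = 0.972). Its second, dimmer probe gave 0.081.

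Erbb3, the neuregulin receptor that signals through its partners, had levels of -1.93 and -1.07 in CD44+ cells and -0.90 and -0.55 in CD44- cells. Both CD44+ arrays were below both CD44- arrays, but the closest pair of arrays lay only 0.17 apart, while the 2 CD44+ arrays differed by 0.86. The difference was -0.78 ± 0.49 (SE, 95% interval -1.91 to 0.36, limma adjusted p = 0.717). Of its other 2 tested probes, 1 gave -0.84 with no overlap of the groups and 1 gave 0.12 with overlap. The remaining Erbb3 probe was not tested because its only spot was an outlier on an array. Its signals were 11.5 and 22.4 in CD44+ cells and 112 and 35.6 in CD44- cells.

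Of the ligands of Egfr alone, Egf, the founding ligand, was faint. Its signals were 20.1 and 49.3 in CD44+ cells and 32.2 and 80.9 in CD44- cells, and on the first CD44+ array only 2 of its 10 spots were well above background. The levels were -3.60 and -3.32 in CD44+ cells and -3.66 and -2.70 in CD44- cells, so the groups overlapped. The difference was -0.28 ± 0.50 (SE, limma adjusted p = 0.875). Its spots varied by 7.25% to 16.7% on an array.

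The 2 probes of Tgfa, which encodes TGF-alpha, disagreed. The brighter probe, with 1 spot per array, had signals of 1177 and 113 in CD44+ cells and 123 and 345 in CD44- cells. The levels were 2.27 and -2.12 in CD44+ cells and -1.72 and -0.61 in CD44- cells. The first CD44+ array was the highest, at 21.0-fold the second CD44+ array, which was the lowest of the 4. The difference of this probe was 1.24 ± 1.21 (SE, 95% interval -1.55 to 4.04, limma adjusted p = 0.804), and it turned to -0.96 without the first CD44+ array and reached 3.44 without the second. The other probe, spotted 10 times, had signals of 88.8 and 106 in CD44+ cells and 130 and 70.4 in CD44- cells. After scaling, its levels were -1.46 and -2.21 in CD44+ cells and -1.65 and -2.90 in CD44- cells. The groups overlapped, with the first CD44+ array highest by a small margin, and the difference was 0.44 ± 0.56 (SE). The value of the single-spot probe therefore rests on 1 spot of 1 array.

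Areg, which encodes amphiregulin, had signals of 816 and 1943 in CD44+ cells and 1183 and 1133 in CD44- cells. Its levels were 1.74 and 1.98 in CD44+ cells and 1.54 and 1.11 in CD44- cells. Both CD44+ arrays lay above both CD44- arrays, and the difference was 0.54 ± 0.45 (SE, 95% interval -0.50 to 1.58, limma adjusted p = 0.783). It stayed above 0 in all 16 alternative treatments of the data, with adjusted p values no lower than 0.641.

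Among the ligands that also bind Erbb4, Hbegf, the heparin-binding ligand, was bright on all arrays. Its signals were 2143 and 5483 in CD44+ cells and 2392 and 8055 in CD44- cells. The levels were 3.14 and 3.48 in CD44+ cells and 2.56 and 3.94 in CD44- cells, so both CD44+ arrays lay between the CD44- arrays. The difference was 0.060 ± 0.56 (SE, 95% interval -1.23 to 1.35, limma adjusted p = 0.978), while the second CD44- array was 2.60-fold above the first.

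Btc, which encodes betacellulin, had signals of 351 and 363 in CD44+ cells and 320 and 112 in CD44- cells. The levels were 0.53 and -0.44 in CD44+ cells and -0.34 and -2.24 in CD44- cells. Only the second CD44- array was low, and the first CD44- array lay between the CD44+ arrays. The difference was 1.33 ± 0.69 (SE, 2.52-fold, 95% interval -0.25 to 2.92), with a limma unadjusted p of 0.0879 and an adjusted p of 0.597. It was 0.39 without the second CD44- array and 2.28 without the first, where limma gave an adjusted p of 0.0178 with the lone CD44- array assumed to vary like the CD44+ arrays. The epithelial marker list had summed levels (linear, in units of the 75th percentile) of 2167 and 1553 in CD44+ cells and 1972 and 849 in CD44- cells, also lowest on the second CD44- array. The mucous neck list, 4 of 4 tested genes higher in CD44+ cells, had sums of 1603 and 1478 in CD44+ cells and 864 and 470 in CD44- cells. Their part in the Btc result was not tested. A second Btc probe was not well above background on any array.

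Ereg, which encodes epiregulin, has 1 probe, with signals of 4.70 and 3.48 in CD44+ cells and 2.86 and 4.94 in CD44- cells. It was not well above background on any array and was not tested.

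Nrg1, which encodes neuregulin-1, had the greatest difference of the 9 tested genes. Its brightest probe had signals of 5.33 and 23.2 in CD44+ cells and 90.9 and 436 in CD44- cells. The levels were -5.52 and -4.41 in CD44+ cells and -2.16 and -0.27 in CD44- cells, with the first CD44+ array not well above background. Both CD44+ arrays lay below both CD44- arrays, although the second CD44- array was itself 3.70-fold above the first. The difference was -3.75 ± 0.70 (SE, 13.4-fold lower, 95% interval -5.36 to -2.14), with a limma unadjusted p of 0.000671 and an adjusted p of 0.0861, so Nrg1 was not called. A second probe, with signals of 5.84 and 22 in CD44+ cells and 86.1 and 402 in CD44- cells, gave -3.62. The remaining Nrg1 probe was well above background only on the second CD44- array, where its signal was 48.7. Of all genes, 0.941% were lower by at least as much as Nrg1.

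The size of the Nrg1 difference depended on how dim signals were read. With each signal raised to at least the lowest signal well above background on its array, the difference was -2.70 (6.48-fold lower, limma adjusted p = 0.224). Another background correction (normexp) added an offset of 50 to the signals and was followed by quantile normalization. With it, the difference was -1.41 with a limma adjusted p of 0.628. The parts of the correction, the offset and the normalization in this value were not separated. It was below 0 in all 15 alternatives that gave a value and was called in 5, which were scaling to the median, the authors' deposited table, the replicate block and leaving out either CD44- array. In those 5 fits 3.55%, 3.58%, 8.69%, 7.56% (without the first CD44- array) and 2.2% (without the second) of all genes were called. Limma adjusted p values over these alternatives ran from 4.27e-11 with the replicate block to 0.628 with normexp. The block fit gave all genes the same SE, 0.52, so its p does not measure the spread of Nrg1 itself. The fits without a CD44- array also leaned on a shared variance, with 87.8 prior degrees of freedom against 6.01. The alternative without a value kept only probes well above background on all 4 arrays, which left Nrg1 out. In the main fit Nrg1 passed the filter only through the CD44- arrays, where it is higher. Leaving out the first or second CD44+ array gave -3.19 and -4.30, and leaving out the first or second CD44- array gave -4.69 and -2.80.

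**Figure D3:**
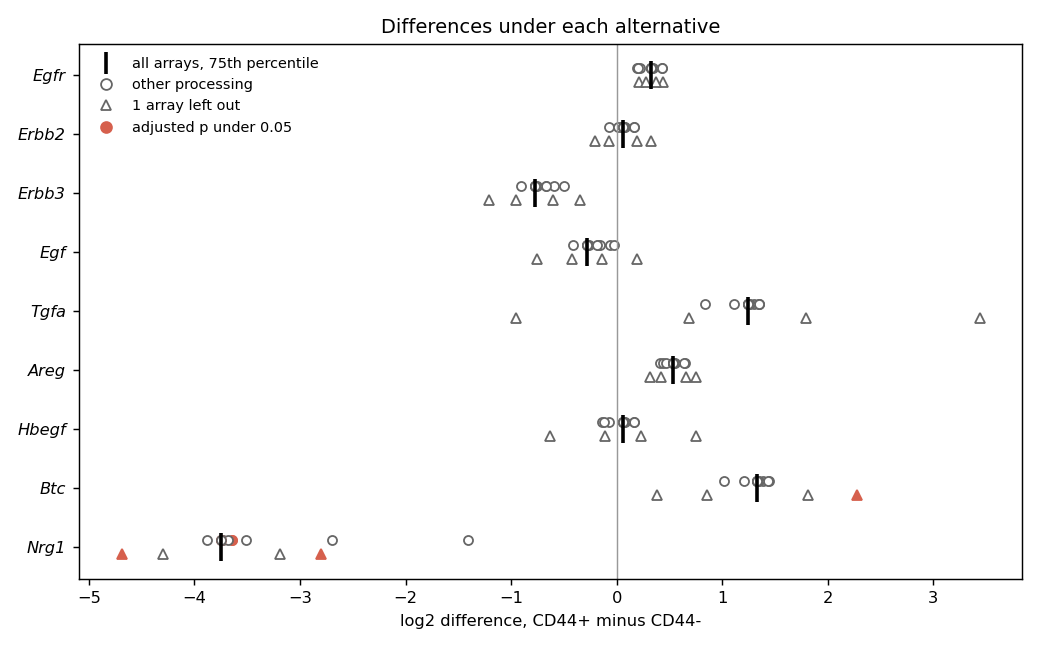
Log2 difference (CD44+ minus CD44-) of each tested gene under the main processing (bar), other processing (circles) and with 1 array left out (triangles); filled symbols have an adjusted p under 0.05. Egfr, Areg and Btc stay above 0 and Erbb3 and Nrg1 below 0, while Tgfa runs from -0.96 to 3.44.

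Markers of several other cell types were, like Nrg1, lower in CD44+ cells. The fibroblast list, 8 of 8 tested genes lower in CD44+ cells, had summed levels of 8.05 and 44.1 in CD44+ cells and 70.2 and 473 in CD44- cells, and its median difference was -3.25. For the endothelial list, 6 of 7 tested genes were lower. Its sums were 1.40 and 2.06 in CD44+ cells and 6.43 and 116 in CD44- cells. Its marker Pecam1 missed the background flag on both CD44+ arrays, but also on a CD44- array, and was not tested. The squamous list, 7 of 8 genes lower, had sums of 22.9 and 8.95 in CD44+ cells and 218 and 364 in CD44- cells, with Krtdap and Dsg3 missing that flag on both CD44+ arrays. The enteroendocrine list, 8 of 8 genes lower, had sums of 1.38 and 3.82 in CD44+ cells and 302 and 704 in CD44- cells, and Neurod1 missed the flag on both CD44+ arrays. For the smooth muscle and pericyte list, 6 of 6 tested genes were lower. Its sums were 8.16 and 11.3 in CD44+ cells and 12.5 and 61.1 in CD44- cells. Its gene Des was not tested and missed the flag on all 4 arrays. The tuft list, 4 of 5 tested genes lower, had sums of 1.87 and 3.43 in CD44+ cells and 7.16 and 16.8 in CD44- cells. Its gene Il25 missed the flag on both CD44+ arrays. The tested genes of these lists that were higher in CD44+ cells were Tek (endothelial, 0.30), Sfn (squamous, 0.27) and Pou2f3 (tuft, 0.54). For Pou2f3 the groups did not overlap, although 1 CD44+ array missed the flag. Over the 4 arrays the sums stood in the same order as Nrg1 for these lists except the squamous one, which was lowest on the second CD44+ array. The parietal and chief list, 4 of 5 tested genes lower, also had that order. Its sums were 1.32 and 2.79 in CD44+ cells and 4.58 and 38.1 in CD44- cells, and its gene Lipf was higher (1.07). The neural and glial list (3 of 4 tested genes lower) and the erythroid list (2 of 2) did not. The neural and glial sums were 18.9 and 30.0 in CD44+ cells and 13.6 and 19.9 in CD44- cells. The part of these lists in the Nrg1 result was not tested. In such bulk samples, fewer cells of a type and less RNA per cell cannot be told apart.

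**Figure D4:**
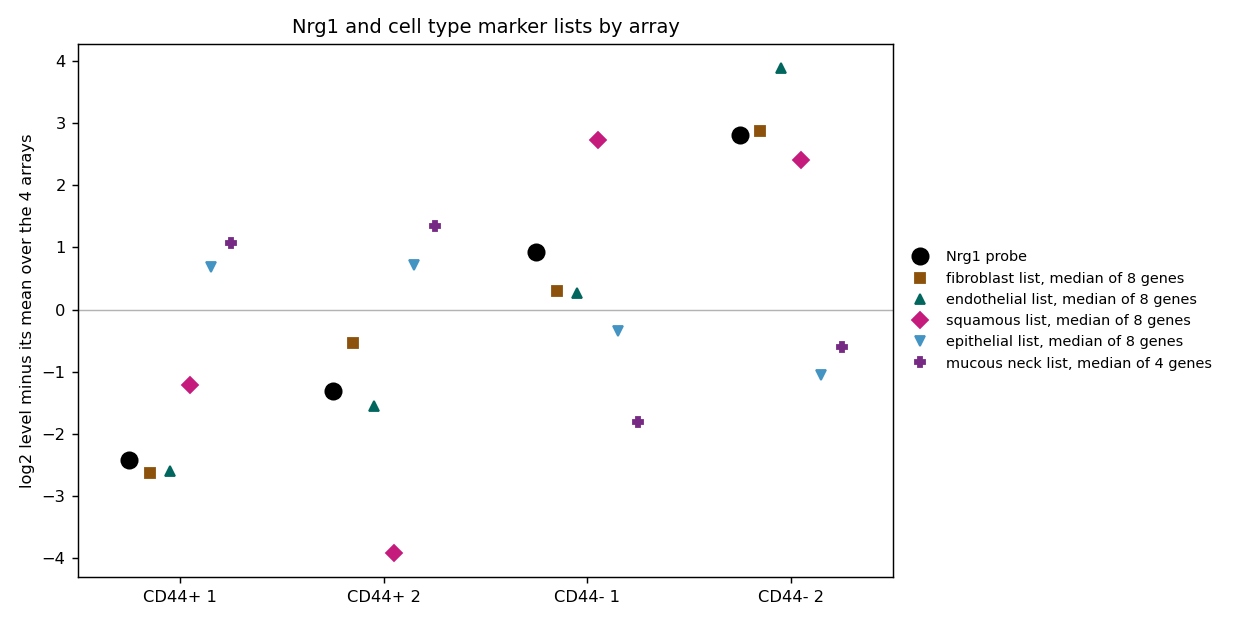
Level of the Nrg1 probe and median level of 5 cell type marker lists on the 4 arrays, CD44+ left and CD44- right, each as log2 minus its own mean over the arrays. Nrg1, the fibroblast list and the endothelial list stand in the same order over the 4 arrays, lowest on the first CD44+ array and highest on the second CD44- array.

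Of 13410 other named genes, the 5 whose levels followed Nrg1 most closely over the 4 arrays were Evc2, Pappa, Gli3, Pgbd5 and Maoa. Closeness was the Euclidean distance between log2 values centred on each gene's mean, and it was 0.259 for Evc2, 0.277 for Pappa, 0.305 for Gli3, 0.326 for Pgbd5 and 0.395 for Maoa. Their differences were -3.99 for Evc2, -3.48 for Pappa, -3.71 for Gli3, -3.82 for Pgbd5 and -3.82 for Maoa. On the first CD44+ array Nrg1, Evc2, Pappa, Gli3 and Pgbd5 all lay below the level of -3.41 that corresponds to detection there, so these distances and their order rest in part on values below detection. The list is a description over 4 arrays.

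The other genes of the family were Erbb4, Epgn, Nrg2, Nrg3 and Nrg4. Epgn had signals of 158 and 275 in CD44+ cells and 533 and 598 in CD44- cells, and levels of -0.62 and -0.84 in CD44+ cells and 0.39 and 0.18 in CD44- cells. Both CD44+ arrays were below both CD44- arrays, with a difference of -1.02 ± 0.44 (SE, 2.03-fold lower), a limma unadjusted p of 0.0496 and an adjusted p of 0.463. It was called in 0 of 16 alternatives. The neighbouring ligand genes shown above thus had differences of -1.02 for Epgn, 0.54 for Areg and 1.33 for Btc, none of them called. Nrg4, a ligand of Erbb4, had levels of -2.44 and -1.93 in CD44+ cells and -2.24 and -2.11 in CD44- cells, and its adjusted p was 0.998. The 3 probes of Erbb4, the remaining receptor, and the probe of Nrg3, a further neuregulin, were not well above background on any array. No probe was named as Nrg2.

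Beyond the receptors and ligands, 84 genes of the pathway in 5 lists, the further family genes among them, were read in the same fit. Of these 72 were tested, 37 were above 0 and 35 below, the median difference was 0.0030, and 0 were called. At an unadjusted p under 0.05, 6 passed, against 10.8% of all genes, and the groups did not overlap for 34, against 39.6%. The 6 were Epgn, Adam15, Eps8, Lrig1, Fosl1 and Egr2.

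Of 10 genes for ligand shedding, 9 were tested, 5 above and 4 below 0, with a median of 0.050. Adam15, a membrane metalloproteinase, was lower, with levels of 0.84 and 1.01 in CD44+ cells and 2.02 and 2.52 in CD44- cells and a difference of -1.34 ± 0.45 (SE, limma adjusted p = 0.297). The differences of Adam9, of Sdc4 (a heparan sulfate proteoglycan) and of Adam10 (a sheddase of Egf and Btc in mouse cells) were 0.94, 0.73 and 0.62, with adjusted p values of 0.672, 0.689 and 0.775.

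Of 29 adaptors and effectors, 26 were tested, 17 above and 9 below 0, with a median of 0.22. Eps8, a substrate of Egfr that acts on actin, had levels of 1.25 and 1.16 in CD44+ cells and 0.11 and -0.57 in CD44- cells. Both CD44+ arrays were above both CD44- arrays, with a difference of 1.44 ± 0.47 (SE, limma adjusted p = 0.276). Pik3r1, a regulatory subunit of phosphoinositide 3-kinase, gave -1.09, the transcription factor gene Stat5a -0.78 and the kinase gene Braf 0.69. Their limma adjusted p values were 0.617, 0.721 and 0.775. Averaged over all tested probes of a gene, Pik3r1 gave only -0.55 and Braf 0.50.

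Of 22 inhibitors and feedback genes, 19 were tested, 9 above and 10 below 0, with a median of -0.094. Lrig1, a membrane protein that lowers ERBB receptor levels and marks some epithelial stem cells, had levels of 3.65 and 3.97 in CD44+ cells and 2.31 and 2.94 in CD44- cells. Both CD44+ arrays were higher, with a difference of 1.19 ± 0.47 (SE, 2.28-fold, limma adjusted p = 0.393). Sh3kbp1, an adaptor in receptor endocytosis, gave 1.05, the antiproliferative gene Tob1 -0.88 and Spred1, an inhibitor of the Ras pathway, -1.07, with adjusted p values of 0.626, 0.614 and 0.639. Spred1 was well above background on only 1 of the 2 CD44+ arrays, and with dim signals raised to the lowest signal well above background its difference was 0.063.

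Of 18 transcriptional targets, 16 were tested, 6 above and 10 below 0, with a median of -0.20. Fosl1, an AP-1 subunit, had levels of -1.46 and -1.34 in CD44+ cells and 0.15 and 1.44 in CD44- cells. Its difference was -2.19 ± 0.54 (SE, 4.57-fold lower, limma adjusted p = 0.160), and it was called in 4 of 16 alternatives (median scaling, the authors' deposited table, the replicate block and without the first CD44- array), with adjusted p values from 0.000518 to 0.751. Egr2, an immediate early transcription factor, had levels of -1.71 and -1.29 in CD44+ cells and -0.32 and 1.93 in CD44- cells. Its difference was -2.31 ± 0.72 (SE, limma adjusted p = 0.247), and it was -3.43 without the first CD44- array, and -1.18 without the second. It was called in 2 of 16 alternatives, without the first CD44- array and with the replicate block. Both genes were highest on the second CD44- array. So were the fibroblast, endothelial, squamous, enteroendocrine, smooth muscle and pericyte, tuft, and parietal and chief sums given above. The part of these lists in the values of Fosl1 and Egr2 was not tested. Etv4 and Junb gave 0.77 and -0.97, with adjusted p values of 0.685 and 0.687.

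**Figure D5:**
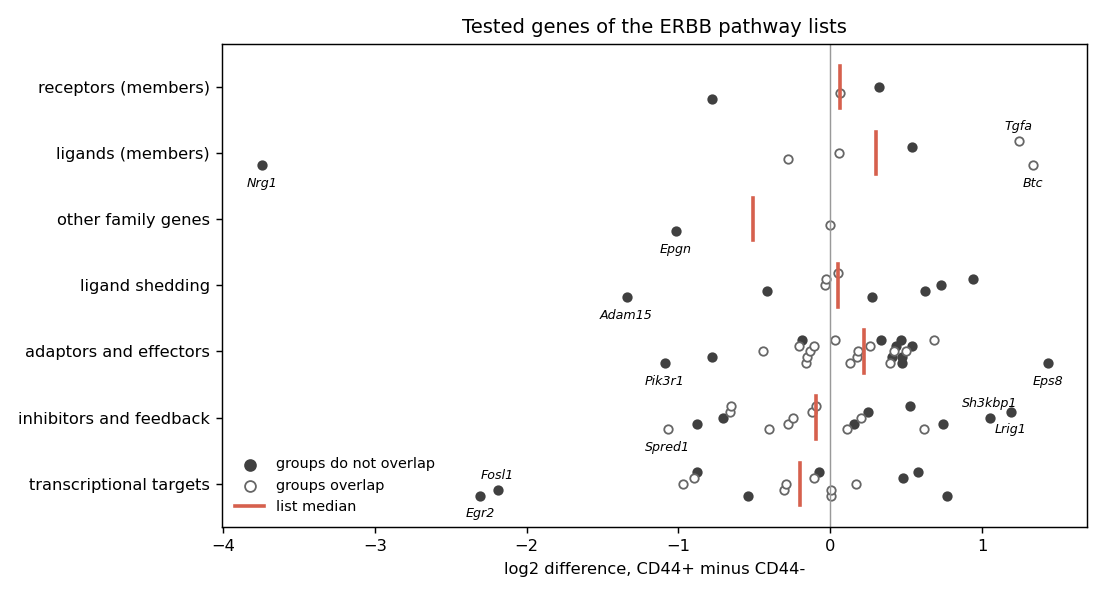
Log2 differences (CD44+ minus CD44-) of the tested receptors, ligands and other pathway genes by list, each point a gene, filled where the 2 CD44+ and 2 CD44- arrays do not overlap, with the list median as a bar. The medians of the 5 lists of other pathway genes run from -0.51, for the 2 tested further family genes, to 0.22, for the adaptors and effectors, and Nrg1 at -3.75 lies farther from 0 than any other gene plotted.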

How the data were processed

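RNA of 2 CD44+ and 2 CD44- samples was measured on one-colour Agilent arrays. RNA was amplified from 25 ng, per the labels, and 0.2 ug of the product was labelled with Cy3; amplification from little RNA can distort ratios between transcripts. The authors deposited 1 scanner table per array, whose processed signal is a background-subtracted intensity on a linear scale, per the file headers, with no scaling between arrays. The headers name Agilent Feature Extraction 10.1.1.1, and the submitters' processing notes name 9.5. The authors' deposited value table holds, set against the scanner signals, a linear ratio with low values held at 0.01; its column medians are 0.853 and 0.989 for CD44+ and 0.928 and 0.739 for CD44-, and the scaling of each array is not stated. The authors' software also set the flags (other values of 0 or 1) for outliers and detection.

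Control spots and outlier spots (109 to 133 per array) were left out, spots of a probe were averaged, and each array's log2 signals were set relative to its 75th percentile over probes. No spot was saturated. A spot is well above background by the deposited flag, and a probe if more than 0.5 of its spots are; in CD44+ 53.1% and 65.6% of spots were so and in CD44- 66.6% and 69.6%. Accessions were matched to a RefSeq table (GRCm38.p6), which named 24375 probes for 17016 genes; 16799 probes stayed unnamed. Probes entered the test when both arrays of 1 or both groups were well above background, and the brightest tested probe stood for its gene. Limma 3.58.1 (lmFit, eBayes) in R 4.3.3 had 2 residual and 6.01 prior degrees of freedom, with Benjamini-Hochberg adjustment over all 21045 genes; probes were fitted alike (26508 tested). The fit was run on simulated data with independent noise for each gene. Shared array effects were not simulated, so that run says nothing on them.

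Members and gene lists were chosen with earlier results of these data known. Named were all members, the 5 other family genes, up to 4 genes per pathway list with the smallest p, and the 5 genes nearest to the member with the smallest p. Alternatives changed scaling, normalization, background, filter, probe choice, variance model, replicate block and the arrays used. The normexp alternative used an offset of 50 and was then quantile normalized. Array number limits the precision.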

Additional observations from a re-analysis of the deposited data

How the results depend on the processing

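Of 445 values of the 28 named genes under up to 16 alternatives, 415 kept their direction and their side of the threshold, 13 became called and 17 changed sign. The count of all genes called, 84, was 748 with scaling to the median, 753 with the authors' deposited table, 130 with a variance trend, 42 with the detection floor, 24 with no filter on dim probes, 6 with quantile normalization, 3 with the 75th percentile over probes detected on all arrays and 1 with normexp, and 2 to 1590 with 1 array left out (34 and 2 without the first and second CD44+ array, 1590 and 464 without the first and second CD44- array). The cause was not tested. The median of all genes moved by 0.11, 0.10, -0.13 and 0.14 with median scaling, the authors' table, the detected-probe percentile and no filter. The 0 called members became 1 (Nrg1) and the 0 called member probes 2 with median scaling and with the authors' table, and 0 to 2 members and 0 to 3 probes with 1 array left out (most without the first CD44- array: Nrg1 and Btc). The 0 called other pathway genes became 1 with both of those scalings, and 0 to 2 with 1 array left out (Fosl1 and Egr2 without the first CD44- array). The labels do not say that replicate numbers pair samples. The correlation across genes of same-numbered arrays' deviations from their group means was 0.347. Since each group has 2 arrays, both pairs give this same value, so it is not a replicated estimate. With the replicate block, on fewer residual degrees of freedom and a pooled variance, 1829 genes, 1 member, 2 member probes and 2 other pathway genes were called, as was Cd44 (adjusted p = 0.0114).

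Signs changed with the detected-probe percentile for Erbb2 (-0.0704) and Hbegf (-0.0718), and for Hbegf with quantile normalization (-0.14) and normexp (-0.12). Nrg4 turned to 0.10 with median scaling, 0.10 with the authors' table, 0.0551 with quantile normalization and 0.0162 with the percentile over spots, and Spred1 to 0.0634 with the floor. With 1 array left out the ranges were -0.20 to 0.33 for Erbb2, -0.76 to 0.20 for Egf, -0.96 to 3.44 for Tgfa, -0.63 to 0.75 for Hbegf and -0.26 to 0.25 for Nrg4. There the lone array is assumed to vary like the other group. The floor and the percentile over spots were chosen after seeing the data. A slide or scan block was not run, since all arrays share 1 slide and 1 scan time. Nrg1 and Egf on the first CD44+ array lay below the signal that counts as well above background, which limits their values.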
